A study of Mus musculus with 16 samples.

Results

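RNA of microglia was compared between Ercc1 knockout (KO) and wild-type (WT) mice at 12 weeks of age, with 4 libraries in each group. These 8 of the series' 16 libraries were chosen by their labels alone, and all genes were followed, those higher in KO and those lower. The other 8 libraries are KO and WT microglia at 6 weeks, also with 4 in each group. Cells came from whole brain of mice on a C57Bl6J/FVB cross background and were sorted as DAPI-negative, CD11b-high, CD45-intermediate and Ly6c-negative. The WT group held replicates 3 (female), 4, 5_6 and 8 (male), and the KO group held replicates 1, 2 and 4 (male) and 3 (female). The labels give "ko" and "wt" without the alleles, and they do not say whether each library is 1 animal or whether animals were pooled, so p-values measure the spread between these libraries.

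Microglia are macrophages that reside in brain tissue. In healthy tissue they survey their surroundings and express a characteristic set of receptors, among them P2RY12 and CX3CR1. Exposed to damage, disease or age they can lower this homeostatic program and raise genes of lipid handling, phagocytosis, antigen presentation and the interferon response, a state often called primed or disease-associated. Ercc1 encodes a partner of the endonuclease XPF, which cuts damaged DNA in nucleotide excision repair and crosslink repair. The series title describes the mice as aging at an accelerated rate and names IRF7, IRF9 and SMAD3 as regulators of microglia priming.

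Counts per library lay between 7882182 and 22142972, with the deepest in WT replicate 5_6, and levels are given as CPM, the counts of a gene relative to the scaled total of its library. On the first principal component of the 8 libraries, which held 21.0% of the variance, all KO libraries had positive and all WT libraries negative values. WT replicates 3 and 8 stood apart at opposite ends of the second component (17.2%), and KO replicate 4 and WT replicate 5_6 at opposite ends of the third (14.9%). The male-labelled WT replicate 5_6 held both Xist (349.6 CPM) and Y-linked RNA (112.6 CPM), and in the other 7 libraries the more abundant of these RNAs matched the labelled sex. In bulk RNA, a lower share of a cell type and less RNA per cell cannot be told apart.

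Ercc1 (ENSMUSG00000003549) was at 7.46, 15.003, 11.2 and 49.2 CPM in WT replicates 3, 4, 5_6 and 8, and at 5.86, 0.425, 4.06 and 6.77 CPM in KO replicates 1 to 4. All KO libraries lay below all WT libraries, and the lowest WT library was close to the highest KO library. The log2 change of -2.22 ± 0.69 (SE) did not pass in edgeR (adjusted p = 0.105). The part of the gene that is altered in the KO is not given in the labels, so counts over the whole gene check the labels only in part.

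The sorted cells carried microglia markers at high levels in both groups. The summed level of the microglia markers was 65105 to 72738 CPM in WT libraries and 51359 to 54005 CPM in KO libraries, and 3 of the 10, P2ry12, Gpr34 and Cx3cr1, fell. The markers of border-associated macrophages, which live in the meninges and around vessels, summed to 249 to 294 CPM in WT and 332 to 502 CPM in KO. Of these 14 genes 3 rose, Ccl8, Dab2 and Ms4a7, Dab2 lost its call in 5 and Ms4a7 in 4 of the 8 refits without 1 library (the highest adjusted p was 0.136 without KO replicate 4 and 0.0915 without WT replicate 4), and 0 of the 14 passed without WT replicates 3 and 8 and KO replicate 4. The log2 change was positive for 13 of the 14 and negative for 1, with a median of 2.02. For 9 of them all KO libraries lay above all WT libraries, against 5.13% of all tested genes. Mrc1, a defining marker of these cells, was at 0.324 to 19.6 CPM in WT and 40.9 to 78.3 CPM in KO (adjusted p = 0.0926 in edgeR). Stab1, the 1 marker with a negative change, was at 179 to 259 CPM in WT and 116 to 178 CPM in KO. It held most of the summed level in WT. The monocyte markers summed to 1.19 to 14.1 CPM in WT and 29.7 to 86.5 CPM in KO. All 4 tested genes had a positive log2 change, and 1 passed, Ms4a4c (0 without WT replicates 3 and 8 and KO replicate 4). Plac8 was at 0 to 1.90 CPM in WT and 4.01 to 17.0 CPM in KO. Fn1 was at 0 CPM in WT and 1.92 to 4.14 CPM in KO. Ccr2 reached 10.2 CPM in WT and was at 8.25 to 12.0 CPM in KO, so its groups overlapped. Vcan and Ace, which were not among the tested genes, did not rise. Vcan reached 6.86 CPM in WT and 4.31 CPM in KO, and Ace reached 1.33 CPM in WT and had no count in KO. Ly6c2 and Chil3 had no count in any of the 8 libraries, and the cells had been sorted as Ly6c-negative. The part of border-associated macrophages and monocytes in the results below was not tested.

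**Figure D1:**
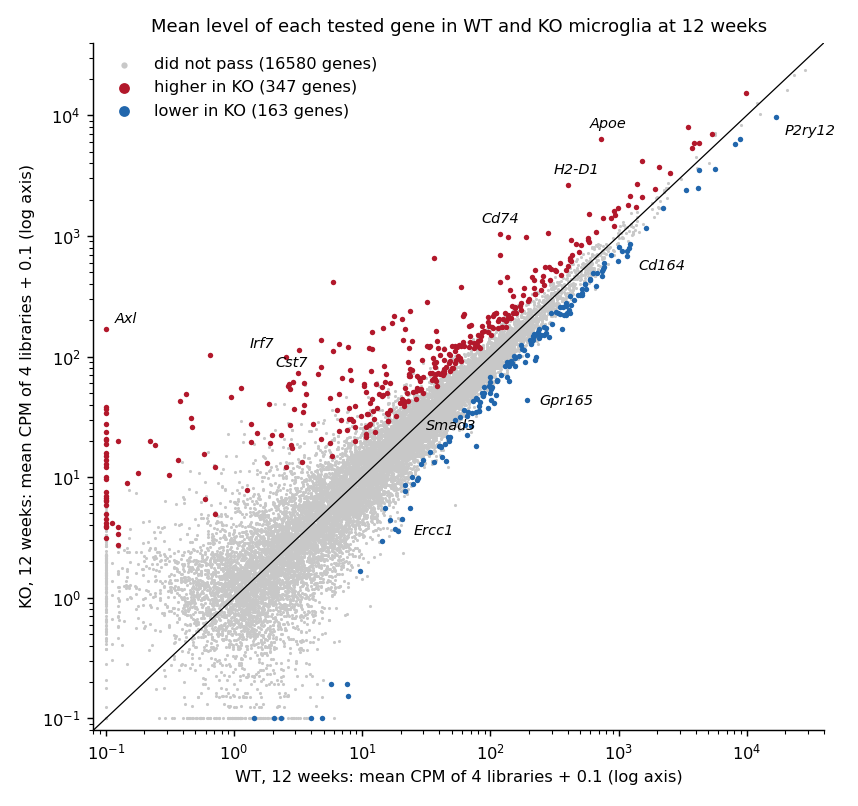
Mean CPM of each of the 17090 tested genes in the 4 WT libraries (horizontal axis) and the 4 KO libraries (vertical axis) at 12 weeks, both plus 0.1 on log axes, with genes higher in KO in red and lower in blue. The 347 higher genes reach far from the diagonal, 28 of them at no count in WT at the left edge, and of the 163 lower genes 57 differ by at least 1 on the log2 scale and 5 have no count in KO, at the lower edge.

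Genes of immune activation rose in KO microglia and genes of the resting state fell. Of 17090 tested genes, 510 passed the edgeR quasi-likelihood test at a Benjamini-Hochberg adjusted p of 0.05 (2.98%), 347 higher (2.03%) and 163 lower (0.954%) in KO. The higher genes had a median log2 change of 1.30 and a median level of 29.6 CPM in WT and 88.3 CPM in KO. The lower genes had a median log2 change of -0.78 and a median level of 154 CPM in WT and 90.4 CPM in KO. A change of at least 3 on the log2 scale in size was reached by 91 higher and 8 lower genes. The higher genes together took 7.20% to 7.81% of all CPM in WT libraries and 12.8% to 15.99% in KO libraries, and the lower genes 8.90% to 9.90% in WT and 5.78% to 6.28% in KO. For 333 of the 347 higher and 151 of the 163 lower genes the libraries of both groups did not overlap, against 5.13% of all tested genes in the higher and 3.08% in the lower direction. As the genes were called from these same libraries, this is a description and not added support. Among genes with an annotated type, 33 of 346 higher genes and 0 of 162 lower genes were pseudogenes, whose reads can be shared with their parent genes. Of the genes that did not pass, 1345 of 16556 were pseudogenes, a share near that of the higher genes.

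A fit to the 8 libraries at 12 weeks alone called 177 higher and 27 lower genes. The lower count was more dependent on single libraries than the higher one: it was 90 without WT replicate 3, 101 without WT replicate 5_6, and 103, 89 and 108 without KO replicates 1, 2 and 3. In all 8 refits that leave out 1 library, 222 of the 347 higher and 47 of the 163 lower genes passed again. Calls were read against lists of genes with a shared role, for which the median log2 change over all tested genes, -0.03, is the reference. Setting genes without a count in a group to the bound of 3 counts over the group left the median of every list described here as it was, except for the monocyte markers (4.996 fitted, 4.64 at the bound).

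**Figure D2:**
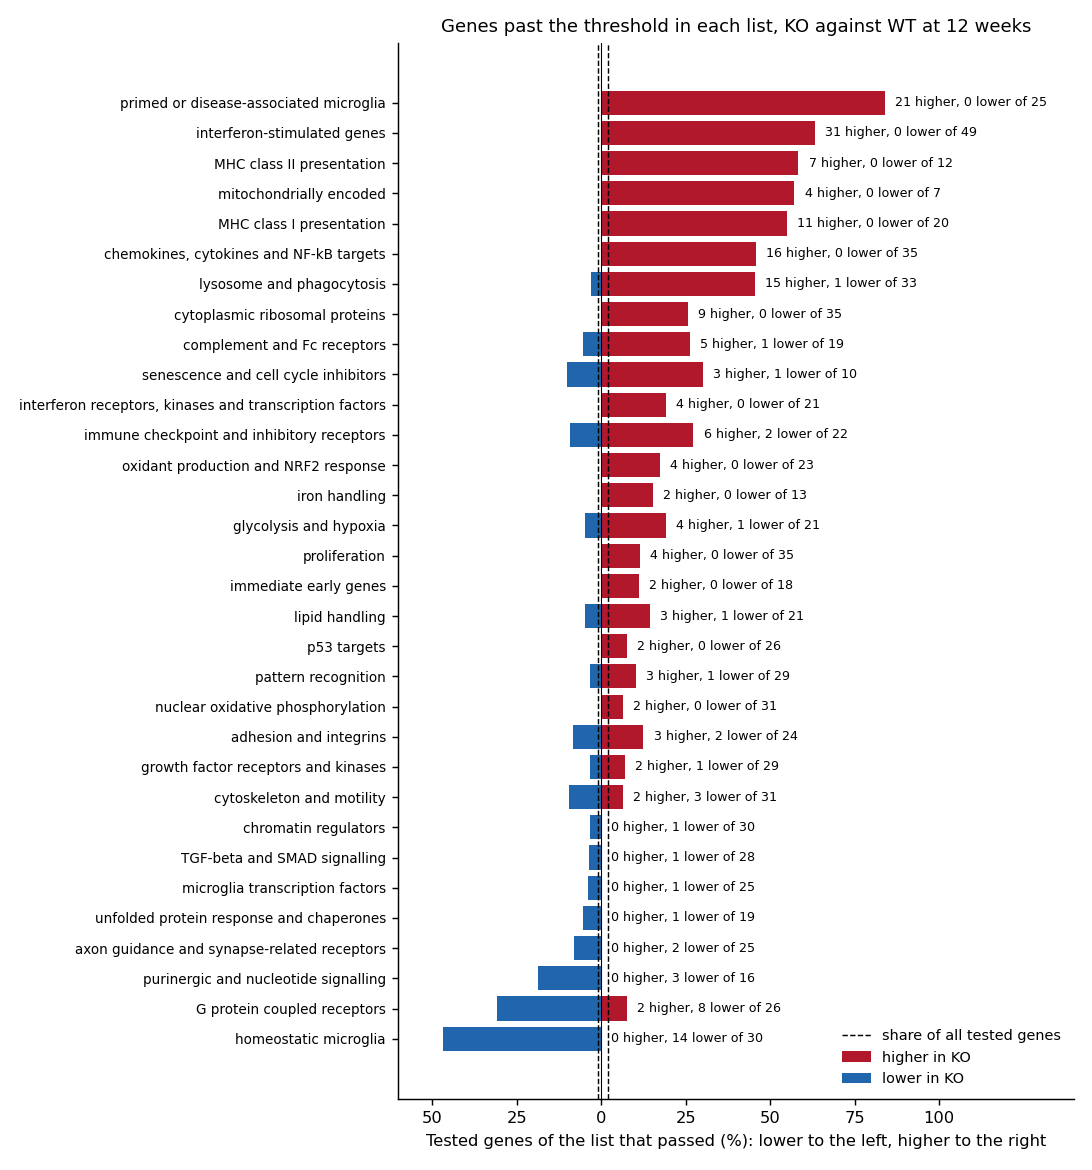
Share of the tested genes of each list that passed in KO against WT at 12 weeks, in percent, higher to the right and lower to the left, with dashed lines at the shares over all tested genes (2.03% and 0.954%). The primed microglia list has the longest bar to the right, 21 of 25 genes, and the homeostatic list the longest to the left, 14 of 30; lists with no gene past the threshold and marker lists of other cells are left out.

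The primed or disease-associated program was the list that rose most completely. Of 25 tested genes 21 rose and 0 fell, with a median log2 change of 2.73. Apoe (ENSMUSG00000002985), the main lipid carrier of the brain, was at 853, 655, 611 and 799.5 CPM in the WT libraries and at 4875, 6032, 6362 and 8287 CPM in the KO libraries. Every KO library exceeded the highest WT library several-fold, and KO replicate 4 was the highest. The log2 change of Apoe was 3.13 ± 0.19 (adjusted p = 4.69e-07 in edgeR). Lpl, which releases fatty acids from lipoproteins, rose from 20.7 ± 3.85 to 137 ± 29.5 CPM (mean ± SD, n = 4, as for all such values). Lyz2, the lysozyme gene of macrophages, was at 108 to 134 CPM in WT and 573 to 868 CPM in KO. Cst7, an inhibitor of lysosomal proteases, rose from 4.45 ± 2.33 to 71.2 ± 9.01 CPM, and the tetraspanin gene Cd63 from 61.0 ± 2.78 to 216 ± 34.8 CPM. Reads of Cd63 can be shared with its copy Cd63-ps, which rose too.

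Several members of the list started from low levels in WT. Spp1, which encodes the secreted protein osteopontin, was at 18.3, 3.32, 1.53 and 0 CPM in WT and at 355, 295, 408 and 588 CPM in KO. Clec7a, a receptor for fungal glucans, was at 0, 8.17, 12.3 and 5.28 CPM in WT and at 96.2, 122, 123 and 167 CPM in KO. The groups were far apart for both genes, and their spread within WT was of the size of the WT mean. Itgax, the integrin subunit CD11c, rose from 3.42 ± 1.98 to 39.7 ± 9.96 CPM, and the oxidase subunit gene Cybb from 4.71 ± 4.71 to 138 ± 66.4 CPM. Itgax did not pass without WT replicates 3 and 8 and KO replicate 4 (adjusted p = 0.106 in edgeR). Trem2, the lipid-sensing receptor gene on which this program is known to depend, did not pass. It stood at 1801, 1872, 1659 and 1956 CPM in WT and 1942, 1859, 1804 and 1919 CPM in KO, so the groups overlapped, with a log2 change of 0.05 ± 0.06 (adjusted p = 0.856 in edgeR).

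Axl (ENSMUSG00000002602), a receptor kinase that binds dying cells, had no count in any of the 4 WT libraries and 167, 227, 175 and 108 CPM in KO replicates 1 to 4. Its relative Mertk went the other way, from 392 ± 61.7 to 280 ± 11.0 CPM, a log2 change of -0.49 ± 0.10. Mertk lost its call in edgeR without WT replicate 3 (adjusted p = 0.0654), WT replicate 8 (0.0522), KO replicate 2 (0.0634) or KO replicate 4 (0.0502).

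**Figure D3:**
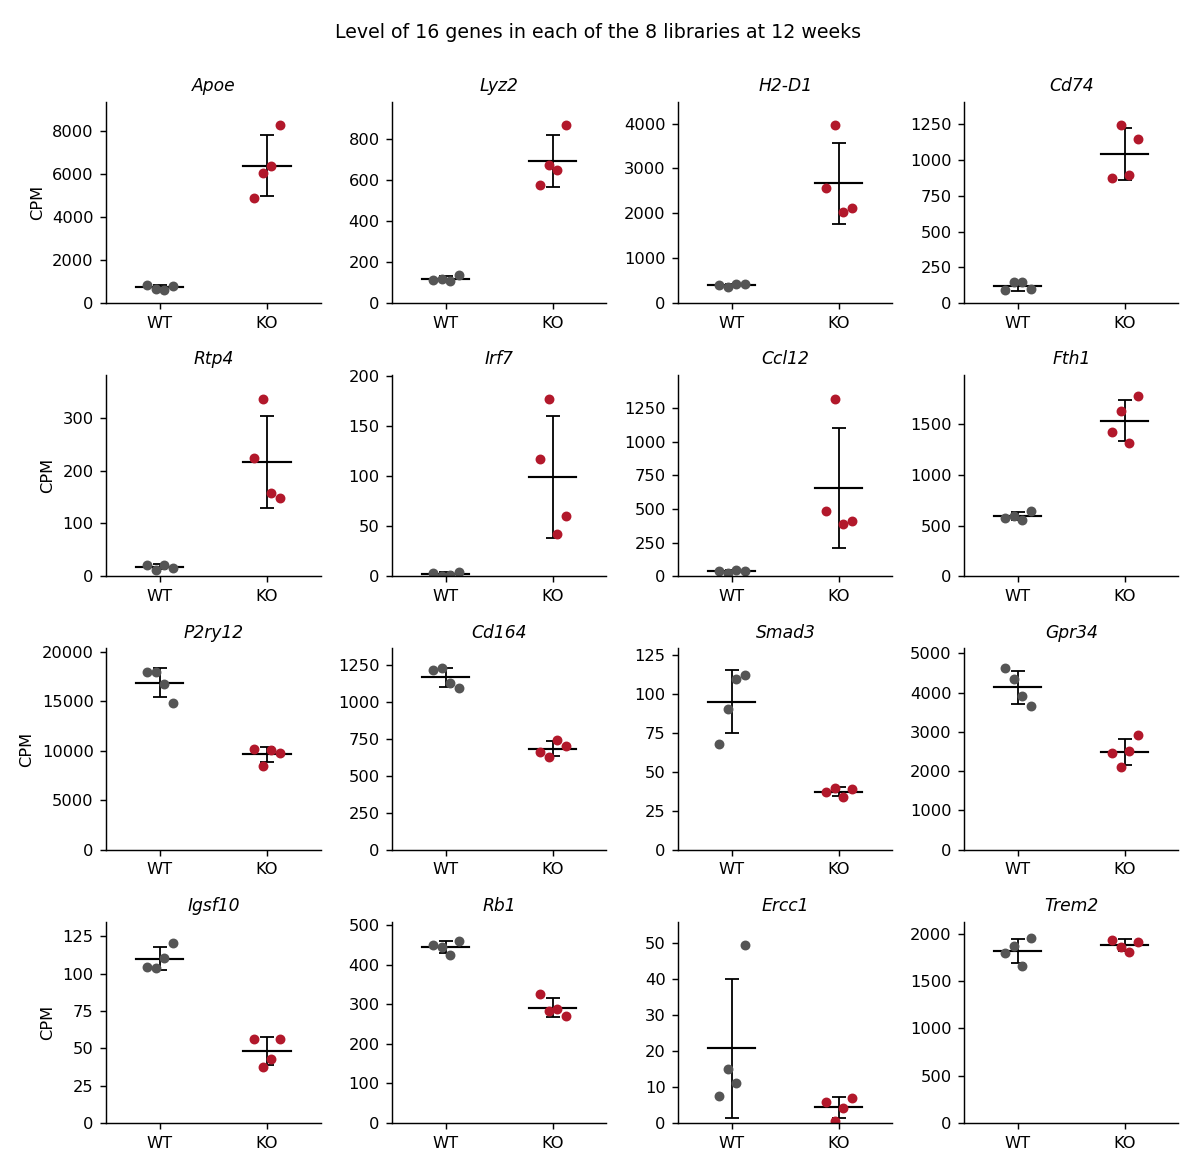
CPM of 16 genes in each library at 12 weeks, with WT in grey and KO in red, and with bars for the mean and SD of 4 libraries; each vertical axis starts at 0. WT and KO points are apart for all genes shown except Trem2, and KO replicate 2, the second red point in each panel, is highest for H2-D1, Cd74, Rtp4, Irf7 and Ccl12.

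Interferon-stimulated genes formed the largest group of risers. Type I interferon signals through its receptor to a complex that includes STAT2 and IRF9, which binds the interferon-stimulated response element (ISRE) in promoters, and IRF7 amplifies the signal. Of 49 tested interferon-stimulated genes 31 rose and 0 fell, with a median log2 change of 3.47. Their summed level was 1336, 1120, 1339 and 1256 CPM in the WT libraries and 4691, 7410, 3273 and 3403 CPM in the KO libraries. All KO libraries were above all WT libraries, and KO replicate 2 was above the other KO libraries by the widest margin.

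The factors of this pathway rose by very different amounts. Irf7 (ENSMUSG00000025498) was at 3.24, 0.475, 1.45 and 4.54 CPM in WT and at 117, 177, 42.3 and 60.4 CPM in KO, a log2 change of 5.37 ± 0.63. Stat2 rose from 22.9 ± 6.81 to 69.4 ± 25.1 CPM. Irf9 (ENSMUSG00000002325) was at 118, 89.0, 68.2 and 78.7 CPM in WT and at 176, 186, 158 and 137 CPM in KO, a log2 change of 0.92 ± 0.16. For these 3 factors the groups did not overlap, and the gap was narrowest for Irf9, which did not pass in the fit to the 12-week libraries alone (adjusted p = 0.0548 in edgeR). They were among the 4 genes that passed, all higher, of 21 receptors, kinases and transcription factors of interferon signalling, a list with a median of 0.37.

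Promoter stretches are shown for 7 interferon genes that rose, because the ISRE pattern, GAAA followed after any 2 bases by another GAAA, lies upstream of their start. They are RefSeq sequences of the GRCm38.p6 build, not the GRCm39 build of the counts, printed 5′ to 3′ on the strand of the gene. In each, 1 match of the pattern is in capitals (TTTC, any 2 bases and TTTC where it lies on the other strand). In Isg15, Oas1a and Bst2 further matches that overlap it are left in small letters.
Ifit3, chr19:34583353-34583402, plus strand: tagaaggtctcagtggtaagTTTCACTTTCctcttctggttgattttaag
Isg15, chr4:156200855-156200904, minus strand: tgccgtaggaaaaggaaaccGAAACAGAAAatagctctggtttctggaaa
Rsad2, chr12:26456543-26456592, minus strand: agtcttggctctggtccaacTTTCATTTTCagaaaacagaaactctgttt
Oas1a, chr5:120907526-120907559, minus strand: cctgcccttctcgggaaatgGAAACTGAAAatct
Bst2, chr8:71537567-71537616, minus strand: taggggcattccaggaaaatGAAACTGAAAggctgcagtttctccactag
Ifi211, chr1:173913054-173913103, minus strand: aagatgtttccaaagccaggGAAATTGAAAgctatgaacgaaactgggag
Stat2, chr10:128270256-128270305, plus strand: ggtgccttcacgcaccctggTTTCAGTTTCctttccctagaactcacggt
The match in capitals began 14 bases before the start in Oas1a, 37 in Ifi211, 66 in Isg15, 120 in Rsad2, 124 in Bst2, 156 in Ifit3 and 222 in Stat2. Further matches began 20 bases before the start in Oas1a, 72 and 78 in Isg15, 130 in Bst2 and 122 in Ifit3, the last outside the stretch shown.

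The promoter table holds 250 bases before and 50 after each start, and both strands were searched. Of the 35 interferon genes that rose on these lists, 26 had a promoter in the table and 15 of these held the pattern. Over all 32851 promoters in the table, 3.44% held it. As 74.3% of the 35 genes had a promoter, below the minimum of 80% set for such shares, the share is void as a comparison and the stretches are a description. The others of the 26, Irf7, Irf9, Oasl2, Sp100, Xaf1, Lgals3bp, Ifit2, Ifi44, Ifi209, Isg20 and Slfn2, had no match of these letters in this window.

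Apart from Stat2, the genes with these promoters encode antiviral effectors or, for Ifi211, a member of a family of DNA sensors. Ifit3, whose protein binds foreign RNA together with IFIT1, was at 18.8, 4.46, 21.0 and 3.27 CPM in WT and at 130, 320, 113 and 81.7 CPM in KO. Isg15, a ubiquitin-like modifier, was at 3.04 to 8.23 CPM in WT and 25.8 to 94.3 CPM in KO. Bst2, which tethers viruses to the cell surface, rose from 67.8 ± 24.2 to 179 ± 26.6 CPM, with a log2 change of 1.40 ± 0.21, and Oas1a, a synthetase that triggers RNA decay, from 1.04 ± 1.83 to 54.2 ± 14.8 CPM. Rsad2, the viperin gene, had no count in WT and 33.7, 74.9, 11.3 and 15.8 CPM in KO. Ifi211, of the Ifi200 family, had no count in WT and 4.85, 12.9, 1.97 and 5.89 CPM in KO, at least 111-fold higher with WT at the floor of 3 counts over the group. It did not pass without WT replicates 3 and 8 and KO replicate 4 (adjusted p = 0.0855 in edgeR). Reads can be shared between copies within the Oas, Ifit and Ifi200 families, which leaves the size of these changes uncertain.

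Further interferon genes started from readable WT levels. Rtp4, a chaperone of receptors that interferon induces, was at 21.95, 12.0, 21.1 and 15.6 CPM in WT and at 224, 336, 158 and 148 CPM in KO, with a log2 change of 3.65 ± 0.30. Ifitm3, which blocks virus entry, rose from 5.85 ± 2.64 to 111 ± 53.7 CPM, and Sp100, a protein of nuclear bodies, from 7.59 ± 5.21 to 121 ± 47.5 CPM. Lgals3bp, a secreted ligand of galectin 3, rose from 137 ± 55.3 to 989 ± 430.2 CPM. The SD in KO came to a sizeable part of the mean for each of these genes.

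That spread followed 1 library. Of the 31 interferon-stimulated genes that rose, 29 were highest in KO replicate 2 among the 4 KO libraries, and 15 were lowest in KO replicate 3 and 15 in KO replicate 4. Of the 21 primed microglia genes that rose, 9 were highest in KO replicate 2 and 8 in KO replicate 4, and of all 347 higher genes 183 were highest in KO replicate 2. Without KO replicate 2, 25 of the 49 interferon-stimulated genes rose, and 22 did in the fit to the 12-week libraries alone. Without WT replicates 3 and 8 and KO replicate 4 it was 21 genes.

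Antigen presentation genes rose in both classes. MHC class I molecules show peptides from inside the cell, and 11 of 20 tested genes of this route rose and 0 fell, with a median log2 change of 0.92. H2-D1 was at 395, 363, 414 and 433 CPM in WT and at 2555, 3972, 2029.5 and 2112 CPM in KO. H2-K1 rose from 191 ± 30.6 to 980.3 ± 298 CPM, and B2m, the shared light chain, from 1533 ± 94.7 to 4152 ± 987 CPM. Tap1, which pumps peptides toward these molecules, rose from 23.3 ± 8.68 to 78.1 ± 21.1 CPM. The WT libraries agreed closely for H2-D1 and B2m, and KO replicate 2 was highest for 10 of the 11 genes. Reads of the H2 genes can be shared between close copies.

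MHC class II molecules show peptides from engulfed material, and 7 of 12 tested genes rose and 0 fell, with a median of 1.01. Cd74, the invariant chain that guides their assembly, was at 87.6, 145, 145 and 94.9 CPM in WT and at 878, 1246, 895 and 1145 CPM in KO, a log2 change of 3.14 ± 0.21. H2-Ab1, a chain of the presenting molecule, rose from 21.4 ± 6.29 to 168 ± 25.6 CPM, and H2-DMa, which loads peptides, from 106 ± 13.6 to 225 ± 46.4 CPM. All KO libraries were above all WT libraries for these 3 genes. Without WT replicates 3 and 8 and KO replicate 4, 7 class I and 5 class II genes rose.

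Chemokines and cytokines rose from near absence or from low levels. Of 35 tested genes of chemokines, cytokines and NF-kB targets 16 rose and 0 fell, with a median log2 change of 2.90. Ccl4, a chemokine that attracts immune cells, was at 25.1, 24.97, 27.9 and 16.4 CPM in WT and at 228, 300.5, 196 and 226 CPM in KO. Ccl12, a ligand of CCR2, was at 36.6, 22.8, 46.9 and 37.5 CPM in WT and at 487, 1318, 392 and 412 CPM in KO. The groups did not overlap for either gene, and KO replicate 2 stood far above the other KO libraries for Ccl12. Ccl5, which attracts T cells, rose from 0.548 ± 0.765 to 104 ± 76.2 CPM, and Cxcl16, a membrane-bound chemokine, from 59.1 ± 18.5 to 376 ± 152 CPM. Reads can be shared between close copies among the Ccl genes. Il1rn, whose protein blocks interleukin 1 signalling, was at 0 in all WT libraries and at 22.1, 43.5, 17.0 and 26.8 CPM in KO. KO replicate 2 was the highest KO library for 14 of the 16 genes, and 13 of the 35 rose without it.

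A smaller share of the sensors of microbes rose. Of 29 tested pattern recognition genes 3 rose (10.3%) and 1 fell (3.45%), against 2.03% and 0.954% of all tested genes, with a median of 0.02. Tlr2, a receptor for bacterial lipoproteins, was at 115, 148, 141 and 135 CPM in WT and at 429.9, 619, 331 and 458 CPM in KO, and its partner Tlr1 rose from 43.6 ± 12.6 to 115 ± 36.7 CPM. Tlr1 did not pass without WT replicates 3 and 8 and KO replicate 4 (adjusted p = 0.114 in edgeR). The third was Dhx58, a regulator of RNA sensing. The gene that fell was Sting1, the adaptor of cytosolic DNA sensing, at 944 to 1045 CPM in WT and 792 to 828 CPM in KO. Its groups did not overlap, and its call (log2 change -0.31 ± 0.07, adjusted p = 0.0274 in edgeR) was lost without any 1 of the 8 libraries, with adjusted p from 0.0541 without WT replicate 5_6 to 0.130 without WT replicate 3. Dhx58 was lost without WT replicates 3, 5_6 or 8 (adjusted p = 0.0620, 0.0633 and 0.0647) and without KO replicate 2 (0.0875).

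Receptors that lymphocytes are known for were among the genes with the smallest p. Il2rg, the common chain of several cytokine receptors, was at 3.68, 3.99, 7.68 and 3.48 CPM in WT and at 62.3, 145, 51.1 and 70.7 CPM in KO. Ly9, an adhesion receptor of the SLAM family, rose from 14.4 ± 4.47 to 172 ± 62.0 CPM. Of 22 checkpoint and inhibitory receptors 6 rose and 2 fell, with a median of 0.67. Pdcd1, which encodes PD-1, was at 5.62, 7.60, 7.54 and 11.3 CPM in WT and at 68.3, 70.7, 29.1 and 86.7 CPM in KO, and Cd274, which encodes its ligand PD-L1, at 1.30 to 4.17 CPM in WT and 10.7 to 33.2 CPM in KO. The 2 that fell were Vsir, the VISTA gene, from 1202 ± 197 to 798 ± 32.6 CPM, and Siglece, a sialic acid receptor, from 157 ± 14.8 to 97.9 ± 14.98 CPM. In the fit to the 12-week libraries alone 3 of the 22 rose and 0 fell, with adjusted p of 0.0597 for Vsir and 0.114 for Siglece in edgeR. Of the 14 T and NK cell markers 9 had no count in any of the 8 libraries, among them Cd3e, Cd8a and Nkg7. Klrd1, the 1 that was tested, was at 4.46 to 10.1 CPM in WT and 0 to 4.19 CPM in KO and did not pass. Cd3d reached 2.11 CPM in WT and had no count in KO. Cd4 and Lck had no count in WT and reached 5.42 and 1.91 CPM in KO. Cd8b1 reached 0.658 CPM in WT and 0.957 CPM in KO.

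Lysosomal enzymes rose by small factors at high levels. Of 33 tested genes of lysosome and phagocytosis 15 rose and 1 fell (Mertk), with a median of 0.36. Ctsb, the protease cathepsin B, was at 3614, 3702, 3263 and 3400.5 CPM in WT and at 7268, 8652, 7092 and 8879.8 CPM in KO, a log2 change of 1.19 ± 0.08. Ctsz, cathepsin Z, rose from 2072 ± 133 to 3726 ± 383 CPM, Psap, the saposin precursor, from 3854 ± 224 to 5938 ± 468 CPM and Hexa, a subunit of hexosaminidase, from 584 ± 51.4 to 887 ± 66.1 CPM. The libraries of each group lay within narrow ranges for these genes and did not overlap between groups. Genes of iron storage moved with them: the ferritin heavy chain gene Fth1 was at 571, 594, 558 and 646 CPM in WT and at 1419, 1625, 1317 and 1774 CPM in KO, and the light chain gene Ftl1 rose from 760.5 ± 28.3 to 1419 ± 194 CPM, 2 of 13 genes of iron handling. Both ferritin genes have pseudogenes with which reads can be shared.

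Of 19 tested complement and Fc receptor genes 5 rose and 1 fell, with a median of 0.33. The 5 became 2 without KO replicate 1 or KO replicate 2, and 3 without WT replicate 4, WT replicate 5_6 or KO replicate 4 and in the fit to the 12-week libraries alone. C3ar1, the receptor for the complement fragment C3a, was at 475, 484, 413 and 342 CPM in WT and at 922, 941, 1007 and 817 CPM in KO. C1qb, a chain of the recognition molecule of complement, rose from 5327 ± 133 to 7065 ± 487 CPM (SD), with the log2 change at 0.41 ± 0.07. Its partner chain C1qa did not pass, with 2547 ± 434 CPM in WT and 3284 ± 232 CPM in KO (adjusted p = 0.0633 in edgeR). The gene that fell was Fcrl1, an Fc receptor-like gene best known from B cells, at 66.2, 83.6, 56.4 and 54.1 CPM in WT and at 15.2, 22.3, 30.9 and 20.6 CPM in KO. Cd79a, a defining B cell gene, had no count in any of the 8 libraries, and the B cell markers summed to 1069 to 1221 CPM in WT and 1021 to 1085 CPM in KO, most of it Ighm. Cd79b, another of these markers, was at 65.8 to 92.3 CPM in WT and 29.7 to 57.7 CPM in KO. Of the 4 tested B cell markers 2 had a positive and 2 a negative log2 change, and 0 passed.

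Genes of energy metabolism and of protein synthesis shifted upward in part. Pkm, a glycolytic kinase, was at 113, 119, 108 and 101 CPM in WT and at 219, 213, 218 and 276 CPM in KO, and Ldha, which makes lactate, rose from 79.7 ± 15.3 to 152 ± 8.29 CPM. With Tpi1, another glycolytic enzyme, and Hif1a, the oxygen-responsive factor, 4 of 21 genes of glycolysis and hypoxia rose. The 1 that fell was Slc2a5, a fructose transporter that marks microglia, from 662 ± 102 to 382 ± 78.4 CPM. In the fit to the 12-week libraries alone 2 of the 21 rose and 0 fell, and Hif1a (adjusted p = 0.0947 in edgeR) and Tpi1 (0.0575) were among those lost. Of 7 tested mitochondrially encoded genes 4 rose, with a median of 0.65, for example mt-Co1, a subunit of cytochrome oxidase, from 461 ± 74.7 to 856 ± 88.1 CPM. Their summed level was 2412, 2908, 2817 and 3198 CPM in WT and 4459, 5278, 4363 and 6163 CPM in KO. The share of counts from mitochondrial genes, which is also a measure of sample quality, moved with them, from 0.276% to 0.385% in WT and 0.491% to 0.680% in KO. In the fit without WT replicates 3 and 8 and KO replicate 4, 1 of the 7 passed.

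Of 35 tested ribosomal protein genes 9 rose and 0 fell, with a median of 0.51. Rplp0, a stalk protein of the large subunit, was at 58.6, 64.6, 60.7 and 51.8 CPM in WT and at 123, 119.7, 127 and 116 CPM in KO. Rpl32 rose from 104 ± 14.6 to 218 ± 26.2 CPM. The groups were well apart for both genes, and many ribosomal protein genes have pseudogenes with which reads can be shared. In the fit to the 12-week libraries alone 4 of the 35 passed. Nuclear genes of oxidative phosphorylation moved less, with 2 of 31 higher and a median of 0.23.

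Cell cycle genes had a large median change and few calls. Of 35 tested proliferation genes 4 rose and 0 fell, with a median of 1.68, and their summed level was 540 to 623 CPM in WT and 811 to 1205 CPM in KO. Mcm6, a subunit of the replicative helicase, was at 7.03, 22.9, 20.1 and 12.1 CPM in WT and at 44.7, 68.9, 43.2 and 40.9 CPM in KO, and its groups did not overlap. None of the 35 passed without KO replicate 2, and 1 passed in the fit to the 12-week libraries alone. Mcm6 had an adjusted p of 0.0840 in edgeR without KO replicate 2, of 0.0670 without WT replicate 3 and of 0.0590 without WT replicate 8.

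Of 26 p53 targets 2 rose, with a median of -0.02, and 1 did without WT replicate 4 or KO replicate 2, 3 or 4 and in the fit to the 12-week libraries alone. One was Cdkn1a, the cell cycle inhibitor p21, at 46.3, 24.9, 17.8 and 39.6 CPM in WT and at 90.7, 135, 121 and 138 CPM in KO, a log2 change of 1.94 ± 0.29. Its groups did not overlap. Of 34 genes of excision and crosslink repair 0 rose and 0 fell, with a median of -0.07. Of 10 tested genes of senescence and cell cycle inhibitors 3 rose and 1 fell, with a median of 0.73. In the fit to the 12-week libraries alone 1 of 9 tested genes rose and 1 fell. Among cell cycle inhibitors Rb1, the retinoblastoma gene, fell from 446 ± 15.2 to 292 ± 24.3 CPM, a log2 change of -0.61 ± 0.08.

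The homeostatic microglia list held the largest group of falls. Of 30 tested genes 14 fell and 0 rose, with a median log2 change of -0.35. P2ry12 (ENSMUSG00000036353), the receptor for ADP that steers microglia processes, was at 17971, 17939, 16712 and 14825 CPM in WT and at 10132, 8499, 10071 and 9785 CPM in KO. The lowest WT library lay well above the highest KO library, and the log2 change was -0.81 ± 0.08 (adjusted p = 2.08e-05 in edgeR). P2ry13, its neighbour in the same receptor family, was at 5677, 6244, 5512 and 5305 CPM in WT and at 3642, 3349.9, 3683 and 3657 CPM in KO. With Entpd1, the ectonucleotidase CD39, which fell from 1229.7 ± 135 to 859.55 ± 67.0 CPM, they were the 3 lower of 16 genes of purinergic signalling. Without WT replicates 3 and 8 and KO replicate 4 Entpd1 did not pass (adjusted p = 0.0533 in edgeR).

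Other members of the list fell by log2 changes between -0.48 for Cx3cr1 and -1.26 for Upk1b among those named here. Cx3cr1, the receptor for fractalkine, was at 8041, 9823, 8032 and 9216 CPM in WT and at 6671, 5732, 6858 and 5974 CPM in KO. Selplg, a selectin ligand, fell from 8103 ± 723 to 5762 ± 327 CPM and Upk1b, a tetraspanin-like membrane gene, from 223 ± 17.3 to 92.8 ± 23.1 CPM. Csmd3, a large membrane protein gene, fell from 184 ± 32.5 to 89.9 ± 6.13 CPM and Rhob, a small GTPase gene, from 363 ± 74.5 to 171 ± 37.6 CPM. The groups did not overlap for any of these 5 genes. KO replicate 2, the highest KO library for most interferon genes, was the lowest KO library for 10 of the 14.

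Not all markers of resting microglia fell. Tmem119, a membrane protein specific to microglia in the brain, was at 4163, 5985, 4390.5 and 5722 CPM in WT and at 4345, 3754, 4569 and 3561 CPM in KO. Csf1r, the growth factor receptor on which microglia depend, was at 4089 ± 744 CPM in WT and 3641 ± 575 CPM in KO. The groups overlapped for both genes and neither passed (adjusted p = 0.168 and 0.690 in edgeR). In the fit to the 12-week libraries alone 7 of the 30 genes fell, and Cx3cr1, Rhob and Slc2a5 did not (adjusted p = 0.0560, 0.0559 and 0.0747 in edgeR), and 9 did without WT replicates 3 and 8 and KO replicate 4, where Cx3cr1 (adjusted p = 0.0522 in edgeR) and Rhob (0.119) did not pass.

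G protein coupled receptors were the other list with many falls. Of 26 tested receptors 8 fell and 2 rose, with a median of -0.32. Beside Cx3cr1, Gpr34, a receptor for lysophosphatidylserine, was at 4616, 4338, 3923 and 3663 CPM in WT and at 2455, 2098, 2506 and 2910.0 CPM in KO. Gpr165, an orphan receptor, was at 201, 208, 217 and 138 CPM in WT and at 45.4, 14.1, 64.4 and 51.0 CPM in KO, a log2 change of -2.15 ± 0.32. Lpar6, a receptor for lysophosphatidic acid, fell from 986 ± 36.5 to 616 ± 52.5 CPM and Ccr6, a chemokine receptor, from 374 ± 40.2 to 222 ± 17.3 CPM. The 2 that rose were C3ar1 and Gpr84, a receptor for fatty acids, from 182 ± 22.4 to 369 ± 94.5 CPM.

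Of the signals and factors that maintain microglia identity, 1 gene passed on each of 2 lists. TGF-beta signalling through SMAD proteins is known to be needed for the homeostatic state. Of 28 tested genes 8 had a positive and 20 a negative log2 change, with a median of -0.24. The summed level of the list was 4588 to 5290 CPM in WT and 3893 to 4249 CPM in KO, so the groups did not overlap. Among the 28, 1 gene fell and 0 rose. That gene was Smad3 (ENSMUSG00000032402), at 68.1, 90.7, 109.7 and 112 CPM in WT and at 36.8, 39.9, 33.6 and 39.2 CPM in KO, a log2 change of -1.35 ± 0.19. The KO libraries were nearly alike and all below the WT libraries. Tgfbr1, the type I receptor, was at 1992 ± 345 CPM in WT and 1562 ± 105 CPM in KO and did not pass (adjusted p = 0.0881 in edgeR). Of 25 transcription factors of microglia 1 fell, Maf, which restrains activation in macrophages, from 522 ± 104 to 334 ± 43.6 CPM. This list had a median of 0.02, with 13 positive and 12 negative log2 changes. Maf did not pass in the fit to the 12-week libraries alone (adjusted p = 0.0881 in edgeR) or without WT replicates 3 and 8 and KO replicate 4 (0.220), where 0 of the 25 fell.

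Among lower genes outside these roles, several had smaller p than most of the homeostatic genes. Cd164, a sialomucin of adhesion, was at 1218, 1229, 1127 and 1099 CPM in WT and at 660.1, 631, 746 and 699.7 CPM in KO, a log2 change of -0.77 ± 0.07 (adjusted p = 5.31e-06 in edgeR). Pde3b, which degrades cyclic AMP, fell from 269.6 ± 17.7 to 156 ± 18.3 CPM. Igsf10, an immunoglobulin superfamily gene, was at 105, 104, 110.2 and 120.5 CPM in WT and at 56.4, 37.5, 43.0 and 56.2 CPM in KO. Pip4k2a, a phosphoinositide kinase, fell from 225 ± 43.9 to 98.7 ± 27.4 CPM, Tmem204, a membrane protein gene, from 107 ± 21.7 to 40.8 ± 7.33 CPM, and Txndc11, a thioredoxin-domain gene, from 63.4 ± 14.1 to 26.9 ± 4.74 CPM. The groups did not overlap for these 6 genes, and Pip4k2a did not pass without WT replicates 3 and 8 and KO replicate 4 (adjusted p = 0.0951 in edgeR). The lists of cholesterol synthesis (24 tested genes), ion channels (25), proteasome (25), autophagy (22) and circadian clock (16) had 0 genes past the threshold in either direction.

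The direction of the changes was compared with that at 6 weeks, in the other 8 libraries fitted in the same model. At 6 weeks 149 genes passed (0.872%), 136 higher (0.796%) and 13 lower (0.0761%). Of the 347 genes higher at 12 weeks, 128 also passed as higher at 6 weeks, 340 (97.98%) had a positive log2 change there and the median was 0.84. Of the 163 lower genes, 7 also passed as lower at 6 weeks, 142 (87.1%) had a negative log2 change there and the median was -0.27. Among the 16580 genes that did not pass at 12 weeks, 47.5% had a positive log2 change at 6 weeks. The groups at 6 weeks did not overlap in the same direction for 269 of the higher genes, against 4.92% of all tested genes, and for 54 of the lower genes, against 2.96%.

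**Figure D4:**
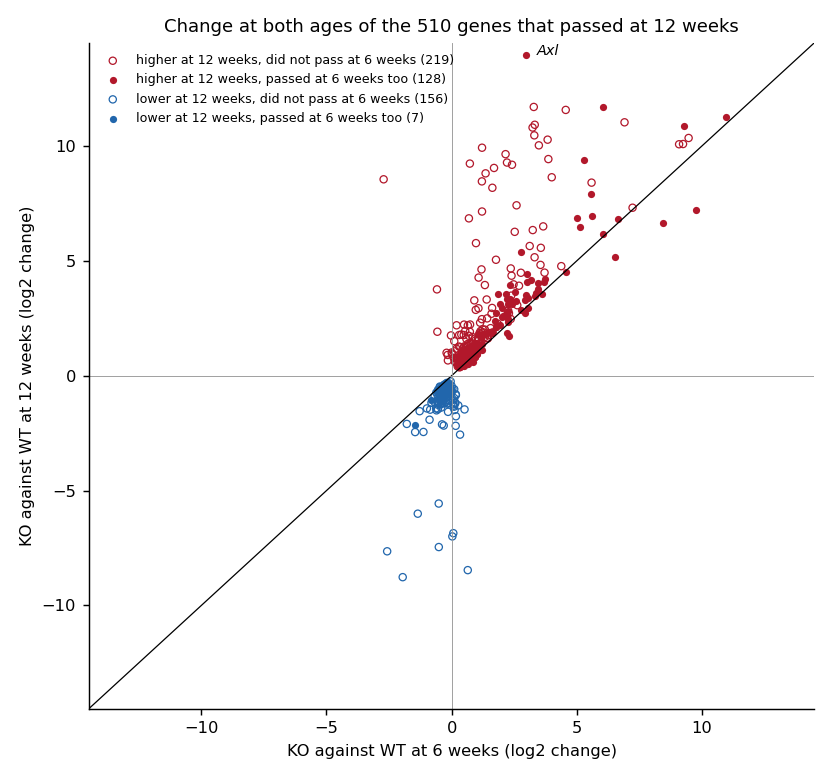
Log2 change of the 510 genes that passed at 12 weeks, at 6 weeks (horizontal axis) and at 12 weeks (vertical axis), red for higher and blue for lower, filled where the gene passed at 6 weeks too, with a line at equal change. Most points lie in the lower left and upper right, 340 higher and 142 lower genes, and values beyond about 7 belong to genes with few or no counts in a group, whose fitted change depends on the prior.

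A difference between the effects at both ages passed for 1 gene (0.00585%), Axl, and 810 genes had an unadjusted p under 0.05. Axl was at 12.1, 5.82, 5.38 and 14.8 CPM in 6-week WT and at 51.4, 89.2, 48.8 and 93.5 CPM in 6-week KO, against no count and 108 to 227 CPM at 12 weeks. Both groups therefore lay farther apart at 12 weeks, and the WT libraries were lower and the KO libraries higher. Cd164 had the next smallest p, with log2 changes of -0.17 at 6 and -0.77 at 12 weeks, and its difference did not pass (adjusted p = 0.0794 in edgeR). Smad3 had 0.10 at 6 and -1.35 at 12 weeks, Igsf10 -0.09 and -1.19, Pde3b -0.17 and -0.79 and Tap1 -0.03 and 1.76, and none of these differences passed (adjusted p from 0.334 to 0.542 in edgeR).

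Gene length was examined because unrepaired lesions in DNA are known to block RNA polymerase more often in long genes. Spans on the chromosome were taken from GENCODE gene models for 11259 genes with a mean of at least 5 CPM, of which 99.9% had one, and 5 groups of 2250 genes were formed in order of span. The median log2 change at 12 weeks was 0.06 in the group of shortest genes and, in order of span, 0.01, -0.03, -0.05 and -0.15 in the others. Of the shortest group 5.11% were higher and 0.844% lower in KO, and of the longest group 0.978% were higher and 2.22% lower. The genes that passed as higher had a median span of 10.4 kb and those that passed as lower one of 27.9 kb, against 21.2 kb over all genes.

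The difference in median log2 CPM between the longest and the shortest group was 0.617, 0.701, 0.669 and 0.654 in the WT libraries and 0.536, 0.371, 0.524 and 0.376 in the KO libraries. All KO values were below all WT values, and KO replicates 2 and 4 were the lowest. The KO mean was lower by 0.21, a two-sided exact permutation p of 0.0286, the smallest that 4 against 4 libraries allow. At 6 weeks the difference was -0.16, with the same p. With genes ranked by their longest annotated transcript in place of span, the difference at 12 weeks was -0.32. In 3 groups of genes ordered by transcript length, the median log2 changes of the shortest and the longest spans were 0.14 and 0.01 in the first, -0.04 and -0.05 in the second and -0.11 and -0.24 in the third. In the second group median spans were 5.49 and 77.98 kb at median transcript lengths of 3.03 and 3.45 kb, and its median log2 changes at 6 weeks were -0.04 and 0.003. In the first and the third transcript length differed with span, with medians of 0.68 and 1.94 kb and of 4.92 and 6.85 kb. Both looks at transcript length were chosen after seeing the data, and the parts of span and of transcript length were not tested. Among protein-coding genes that did not pass, the difference by span at 12 weeks was -0.17.

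**Figure D5:**
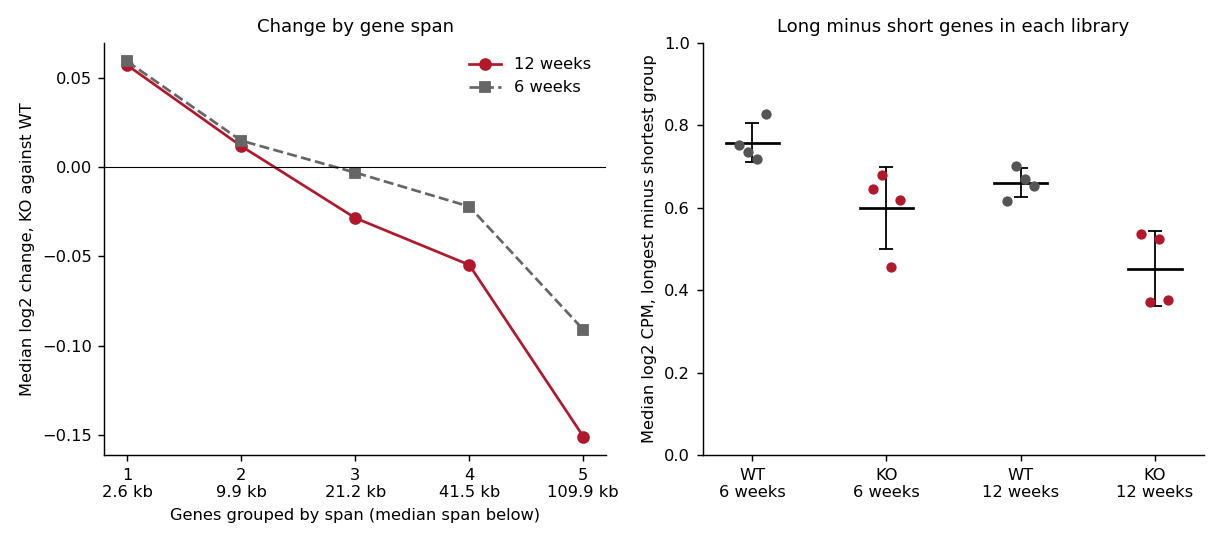
Left, median log2 change of KO against WT by group of 2250 genes ordered by span, at 12 weeks in red and 6 weeks in grey; right, median log2 CPM of the longest minus that of the shortest group in each library at both ages, with bars for the mean and SD of 4. At 12 weeks the line falls from 0.06 to -0.15, and the KO libraries (0.371 to 0.536) lie below the WT libraries (0.617 to 0.701).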

How the data were processed

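The deposited files hold whole-number read counts per gene, 1 table per library, for 53700 genes. A series-wide table the authors deposited has 36982 symbols, and the 36935 that could be matched held the same values. Per the labels' protocols, RNA was purified with the RNeasy Micro kit, prepared with a NEBNext low input kit and sequenced on a NovaSeq6000. Per the submitters' processing notes, HTSeq 0.11.0 and TopHat were used with the GRCm39 build, beside cutadapt 2.10, SAMtools 1.10, FastQC 0.11.9 and Picard 2.13.2; whether counting used strand is not given in the sources used here. Reads carry no stated molecular identifiers, so depth and bounds cover counting error only.

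All 16 libraries were fitted in edgeR 4.0.16 (R 4.3.3) by quasi-likelihood with a term for each group and for sex, TMM scaling and a minimum count of 10 in filterByExpr, which left 17090 genes. P-values were adjusted over all of them by Benjamini-Hochberg at 0.05, and SEs were derived from the F statistic. The common biological coefficient of variation was 0.649. Genes without a count in a group were bounded at 3 counts over the group. Alternatives used DESeq2 1.42.0, limma 3.58.1, other filters, scalings and sets of libraries. The fit was tested on simulated data.

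Named genes were Ercc1, Irf7, Irf9 and Smad3, those with the smallest p or the largest change among abundant genes with groups apart, genes without a count in 1 group, genes differing between ages, and called and abundant uncalled members of each list. Bst2, Ifi211, Ifit3, Isg15, Oas1a and Csmd3 lie outside that rule and were chosen after their values were seen. The members and lists were chosen with earlier results of these data known. Gene spans came from GENCODE annotation of GRCm38, matched by gene identifier. Some list members are not reported here. Gene copies with the same symbol were kept apart by identifier.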

Additional observations from a re-analysis of the deposited data

Results flagged for a closer look

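Among 188 groups of 4 libraries tested for the genes named above, 10 held a library far from the other 3. Chance gives about 1 in 20, a share near the one found, so the cases below are a description. KO replicate 2 was the highest of its group for Ccl12 (1318 CPM, others 392 to 487), Mcm6 (68.9 CPM, others 40.9 to 44.7) and Rpl32 (257 CPM, others 203 to 207), and the lowest for P2ry13 (3349.9 CPM, others 3642 to 3683). KO replicate 4 was the highest for Hif1a (297 CPM, others 204 to 214) and Pkm (276 CPM, others 213 to 219), and KO replicate 3 for Pip4k2a (139 CPM, others 80.1 to 89.0). In the WT group, replicate 3 was the highest for H2-K1 (236 CPM, others 175 to 176) and the lowest for Siglece (135 CPM, others 161 to 166). WT replicate 5_6 was the highest for Xaf1 (12.4 CPM, others 9.31 to 9.71).

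The change of Axl differed between the ages, by 10.98 on the fitted log2 scale (adjusted p = 0.000567 in edgeR). As WT at 12 weeks had no count, this size depends on the prior count and is no measure of fold.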

How the results depend on the processing

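No gene called at 12 weeks changed sign under any alternative. The count of higher genes, 347, became 177 with the 12-week libraries alone, 733 with no filter on low counts, 744 with DESeq2 and 190 without WT replicates 3 and 8 and KO replicate 4. The count of lower genes, 163, became 27, 340, 414 and 61 under the same alternatives. Leaving out 1 library gave 239 to 339 higher and 89 to 125 lower genes. All 510 calls were shared by DESeq2, and 201 by the fit of 12-week libraries alone, where 86.8% of calls were higher against 68.0%. A different effect between ages passed for 132 genes with no filter, 55 with DESeq2, 0 with limma-voom (1030 at an unadjusted p under 0.05, against 810 in edgeR), and 1 to 2 when 1 library was left out. It could not be computed from the 12-week libraries alone. The span difference lay between -0.24 and -0.18 when 1 library was left out, where 4 against 3 libraries allow no exact permutation p below 0.0571, the value found each time. The cause of these shifts was not tested.

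With a replicate block, 103 higher and 28 lower genes passed, 78.6% of them higher, and 110 calls were shared. The groups at 12 weeks share the numbers 3 and 4, and the deviations of same-numbered libraries correlated at -0.00769 and -0.0101, so the numbers do not show a pairing.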

Other observations

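Some genes that rose lie next to each other on the chromosome, by gene order in GRCm38. Ifit2, Ifit3, Ifit3b and Ifit1, antiviral RNA-binding genes, form a run over 99.3 kb of chromosome 19, and Tap1 and Psmb8, genes of peptide supply, lie in a run of 17.9 kb on chromosome 17. Within 1 Mb of Ercc1 on chromosome 7, 39 genes were tested, 2 were higher (Apoe and Ppm1n) and 1 was lower (Mypopos), a set looked at after the values were known. The labels do not say which strain the DNA around the altered Ercc1 gene comes from, and its part was not tested.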
